A study of Mus musculus with 35 samples.

Results

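The imprinted Dlk1-Dio3 domain of mouse chromosome 12 holds a large cluster of miRNA genes, and its liver miRNAs were followed here after a single exposure to N-ethyl-N-nitrosourea (ENU), an alkylating mutagen and carcinogen. The members were chosen by name only: an assay belonged to the cluster when the number in its miRNA name was among 44 numbers listed for the domain. Of these numbers, 35 had an assay, which gave 42 member assays out of 376 miRNA assays on the PCR array. Six-month-old female Big Blue Transgenic mice, which carry a shuttle vector for mutation assays, received 1 intraperitoneal injection of ENU at 120 mg/kg body weight or of the vehicle dimethylsulfoxide (DMSO). Livers were taken 1, 3, 7, 15, 30 and 120 days after ENU (post-treatment days, PTDs), with 5 mice at each of PTDs 1, 3, 7 and 15 and 4 mice at each of PTDs 30 and 120. The 7 vehicle mice, 3 labelled day 1 and 4 labelled day 30, formed a common control group, so that all 6 comparisons share the same controls. These day labels are those of the deposited samples. The study's methods give the control counts of both days the other way round, and the run names in the files give another day for the day 1 controls, so alternatives that rest on the day labels are uncertain. Each of the 35 arrays measured the small RNA of 1 liver. The deposited values of PTD 3 replicate 3 differed from those in the study's own table, unlike the other 34 arrays, and PTD 3 gave the same count of called members without it.

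Genes of the Dlk1-Dio3 domain are expressed from 1 parental chromosome. Its protein-coding genes, among them Dlk1, Rtl1 and Dio3, are active on the paternal copy, whereas the noncoding RNAs Meg3, Rian and Mirg and the miRNAs are transcribed from the maternal copy. The miRNAs are thought to be processed from long maternal transcripts. They are known for high levels in embryo, placenta and brain and for low levels in most adult tissues, liver included. A miRNA guides repression of messenger RNAs through its seed, the bases 2 to 8 from the 5′ end.

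In the RefSeq annotation of GRCm38.p6 the 42 assays belong to 37 hairpins on the plus strand of chromosome 12, from chr12:109563692 to 109743496, a span of 179805 bases. Gaps above 20000 bases divided them into 3 stretches. The proximal stretch of 10 hairpins and 13 assays ran from Mir770 to Mir370. Mir882 stood alone, 63860 bases after Mir370. The distal stretch of 26 hairpins and 28 assays ran from Mir411 to Mir369 within 33322 bases. Both miR-770 assays lay within the span of Meg3, 9 assays within that of Rtl1, 2 within that of Rian and 7 within that of Mirg.

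The mature sequences below are those of the miRNAs on which the results turn, with the seed in capitals. They were taken from RefSeq (GRCm38.p6) by exact mature name, which matched 15 of the 42 assays. The assay names miR-758 and miR-411 give no arm, so both arms of each hairpin are shown, and which arm the assay read is not known.
miR-369-5p: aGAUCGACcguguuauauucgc
miR-758-5p: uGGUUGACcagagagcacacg
miR-758-3p: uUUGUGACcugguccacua
miR-434-5p: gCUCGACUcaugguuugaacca
miR-434-3p: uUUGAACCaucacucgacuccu
miR-337-5p: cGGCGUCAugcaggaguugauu
miR-337-3p: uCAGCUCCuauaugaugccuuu
miR-411-5p: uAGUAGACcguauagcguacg
miR-411-3p: uAUGUAACacgguccacuaacc
miR-770-5p: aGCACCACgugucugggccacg
miR-770-3p: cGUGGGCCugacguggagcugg
The arms of a hairpin, such as miR-337-5p at chr12:109585818-109585839 and miR-337-3p at chr12:109585850-109585871, come from the same precursor but carry different seeds. None of the 15 matched members shared a seed with another member or with any other of the 104 array assays matched to RefSeq by name. The other members were not matched by name, and their seeds were not compared.

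Levels are given as -ΔCt, the mean Ct of 4 reference small RNAs minus the Ct of the assay. Ct is the PCR cycle at which fluorescence crosses a fixed threshold, so that a higher (less negative) -ΔCt means more RNA and 1 unit is a factor of 2 at full PCR efficiency. In control liver the cluster was scarce. The median member level was -9.86, against -7.37 over all 376 assays, and the median rank of the members was 279 of 376. A mean control Ct above 30 was found for 31 of the 42 members, compared with 163 of all 376 assays. For scale, miR-122, the main miRNA of hepatocytes, ranked 1 at 7.59 ± 0.68 (SD, n = 7). The level of 1 assay against another also depends on its primers, so this order is approximate.

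The 5 highest members in control liver were miR-758 at -4.42 ± 1.25, miR-341 at -5.57 ± 0.64, miR-665 at -6.24 ± 0.72, miR-411 at -7.06 ± 0.39 and miR-369-5p at -7.09 ± 0.80 (SD, n = 7 each). Their ranks were 109, 138, 156, 180 and 181. The 5 lowest were miR-380-3p at -13.67 ± 1.83, miR-433 at -12.04 ± 0.88, miR-487b at -11.50 ± 0.47, miR-679 at -11.33 ± 1.85 and miR-134 at -11.20 ± 1.37. Apart from miR-665 and miR-411, every pair of neighbours in the order of the 42 differed by less than the larger of their SDs. The median SD of a member over the 7 controls was 0.84, close to the 0.83 over all assays. The order did not follow the position of the hairpins: the highest levels came from both long stretches, and arms of 1 hairpin could lie far apart, with miR-380-5p at -10.14 ± 1.78 and miR-380-3p 3.53 lower.

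**Figure D1:**
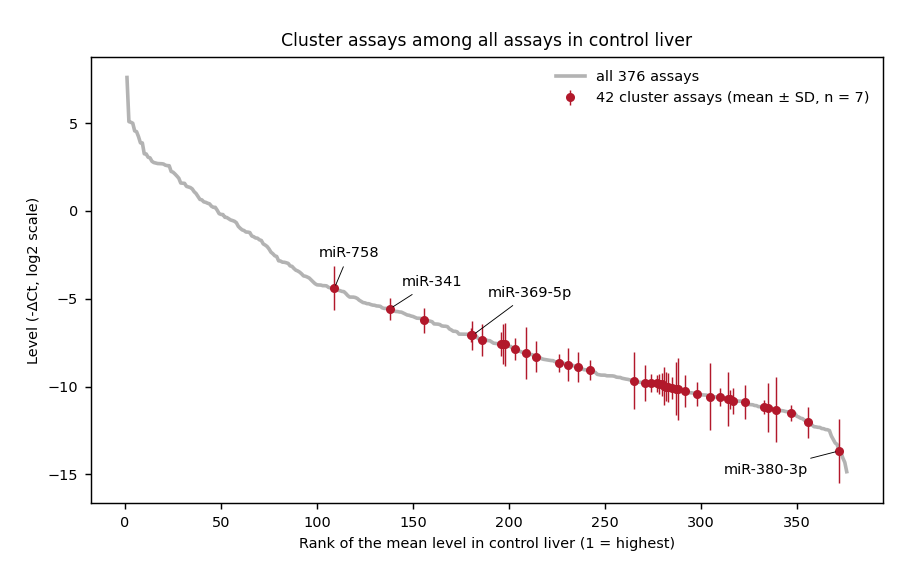
Mean level (-ΔCt, log2 scale, vertical axis) of each assay in the 7 control livers against its rank among 376 assays (horizontal axis). The grey line holds all assays, and red points are the 42 cluster assays with the SD over 7 controls. Most red points lie in the lower part of the order, around a median rank of 279, and miR-758 is the highest at rank 109.

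Changes after ENU were tested with limma over all 376 assays, one fit for each PTD against the 7 controls, and an assay was called changed at an unadjusted p under 0.01 with a fold change above 2. At PTDs 1, 3, 30 and 120 no member was called, and unadjusted p under 0.05 was met by 1, 6, 6 and 2 members, and by 19, 39, 40 and 33 of all 376 assays. By the call rule, 1.33%, 2.13%, 1.6% and 1.33% of all assays were called at these PTDs. At PTD 7, 6 members were called, all of them lower than control, out of 9.84% of all assays called (7.45% lower and 2.39% higher). At PTD 15, 4 members were called, 2 lower and 2 higher, out of 11.4% of all assays (4.79% lower and 6.65% higher). The shares of members called, 6 of 42 and 4 of 42, are of the same order as those over all assays, and nothing particular to the cluster is read from them. With the array median in place of the reference RNAs, 3 members were called higher and 5 lower at PTD 7 (11.7% and 6.38% of all assays), and 5 higher and 2 lower at PTD 15 (9.31% and 5.32%).

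The median log2 fold change over the 42 members was -0.24, -0.16, -0.39, 0.11, 0.45 and 0.28 at the 6 PTDs from day 1 to day 120. Over all 376 assays it was -0.37, 0.02, 0.19, 0.36, 0.54 and 0.46. Scaled to the array median, the member medians were 0.13, 0.14, -0.09, 0.15, 0.05 and -0.14, so that the direction of the member median turned at PTDs 1, 3 and 120. With only arrays of the same run period, described below, it turned at PTDs 1, 3, 7 and 120 and was 0.15 at PTD 7. By stretch, the median at PTD 7 was -0.20 in the proximal and -0.42 in the distal stretch, with 2 and 4 called members. At PTD 15 the medians were -0.18 and 0.15, with 1 and 3 called members.

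**Figure D2:**
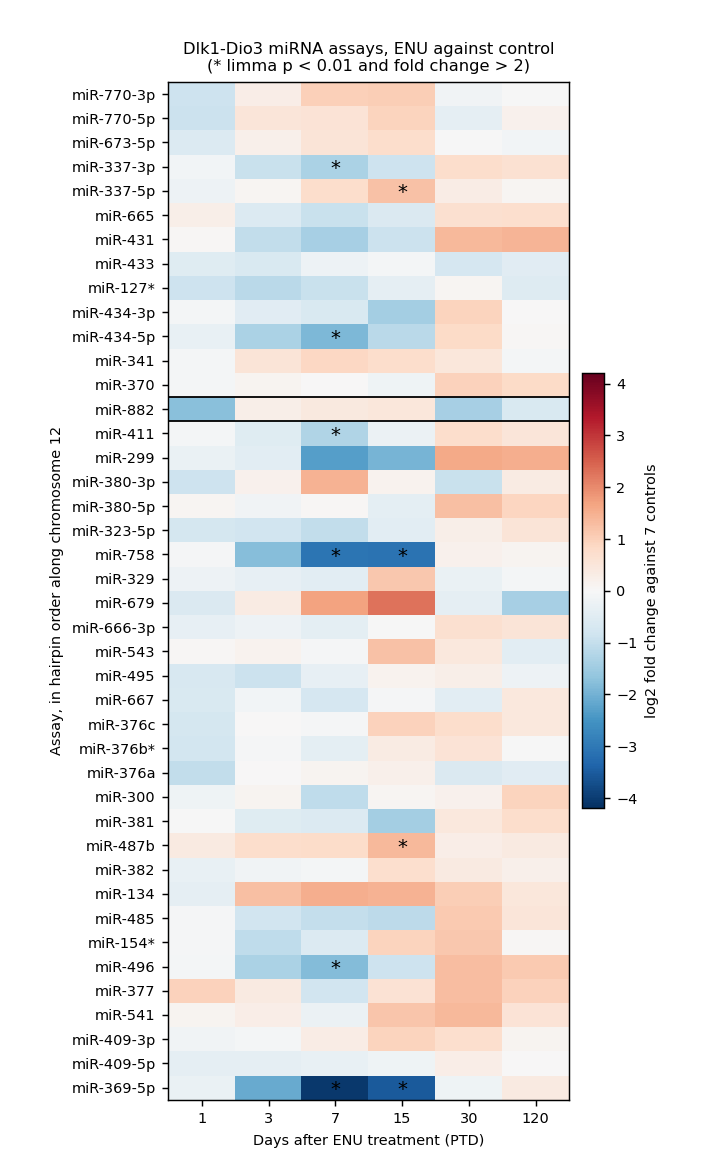
Log2 fold change against the 7 controls (colour) for the 42 assays, in hairpin order along chromosome 12 (rows), at 6 PTDs (columns). Black lines separate the 3 stretches, and asterisks mark limma p under 0.01 with a fold change above 2. Asterisks occur only at PTDs 7 and 15, where blue cells of miR-369-5p and miR-758 are the deepest of the plot.

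miR-369-5p, from the hairpin at the distal end of the cluster, fell the most of all members. The 7 controls lay at -8.11, -7.49, -6.73, -6.73, -5.78, -6.89 and -7.90, and the 5 mice at PTD 7 at -9.55, -13.05, -9.05, -9.82 and -14.25. At PTD 15 the 5 mice lay at -10.59, -10.11, -12.41, -10.82 and -9.10. Every mouse at both times was below every control. The log2 difference was -4.05 ± 0.83 (SE) at PTD 7, a 16.6-fold decrease (limma adjusted p = 0.00744), and -3.51 ± 0.54 at PTD 15, an 11.4-fold decrease (adjusted p = 0.00101). The mice at -13.05 and -14.25 enlarge the fold change of the means at PTD 7, where the median was -9.82 against -6.89 in controls. At PTD 3 the mice were split: replicates 1 and 2 lay at -7.17 and -7.09, among the controls, and replicates 3, 4 and 5 at -10.58, -9.67 and -11.48, below all of them. At PTD 120 the mean was back at -6.70 ± 0.26 (SD, n = 4). At PTD 1, replicate 4 was low at -9.38 and the others lay between -7.33 and -6.48. At PTD 30, 1 of the 4 mice was still low at -10.01, and the others lay between -6.78 and -5.94.

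miR-758, the highest member in control liver, was low at the same times. Controls lay at -4.38, -4.56, -5.27, -3.88, -2.31, -4.14 and -6.37, and the PTD 7 mice at -6.41, -9.26, -8.25, -7.01 and -6.52. The decrease was 8.42-fold at PTD 7 (log2 -3.07 ± 0.65, limma adjusted p = 0.00926) and 8.61-fold at PTD 15 (log2 -3.11 ± 0.69, adjusted p = 0.0162). All 5 mice at PTD 7 were below all controls, although the highest of them, at -6.41, lay next to the lowest control at -6.37. At PTD 15, 3 of the 4 mice with a value were below all controls, and replicate 3 gave no signal within 40 cycles and was left out of the fit. The means at PTDs 30 and 120, -4.23 ± 0.61 and -4.31 ± 0.41 (SD, n = 4 each), were close to the control mean of -4.42.

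miR-434-5p, which lies antisense to the paternally expressed gene Rtl1, fell 3.74-fold at PTD 7 (log2 -1.90 ± 0.35 SE, limma adjusted p = 0.00363). Controls lay between -8.39 and -6.80, and the 5 PTD 7 mice at -9.76, -10.23, -9.91, -9.92 and -8.99, so the groups did not overlap. At PTD 15 the mice spread from -12.22 to -7.52, with 3 of the 5 within the control range, and the mean difference of -1.14 missed the call. miR-496 and miR-411, both from the distal stretch, fell 3.54-fold and 2.38-fold at PTD 7 (log2 -1.82 ± 0.52 and -1.25 ± 0.34, adjusted p = 0.049 and 0.0444). For each of them 4 of the 5 mice were below all controls. miR-411 lost its call with the array median, and miR-496 lost its call against the day 30 controls alone. At PTD 15 the miR-411 mean of -7.30 ± 0.59 lay within 0.24 of the control mean.

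Only 2 members were called higher against the controls, both at PTD 15. miR-487b, from the distal stretch, was 2.59-fold higher (log2 1.37 ± 0.32, limma adjusted p = 0.0168). Controls lay between -12.14 and -10.98 and the PTD 15 mice at -10.36, -10.82, -10.13, -9.83 and -9.51, with no overlap. This assay had a mean control Ct of 33.3, late in the run, and it lost its call with the replicate block. miR-337-5p, from the proximal stretch, was 2.36-fold higher (log2 1.24 ± 0.35, adjusted p = 0.0396), with 4 of the 5 mice above all controls. It lost this call against the day 30 controls alone (log2 0.94), with the replicate block (0.99) and without replicate 1 or 5 of PTD 15 (1.16 and 1.06).

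**Figure D3:**
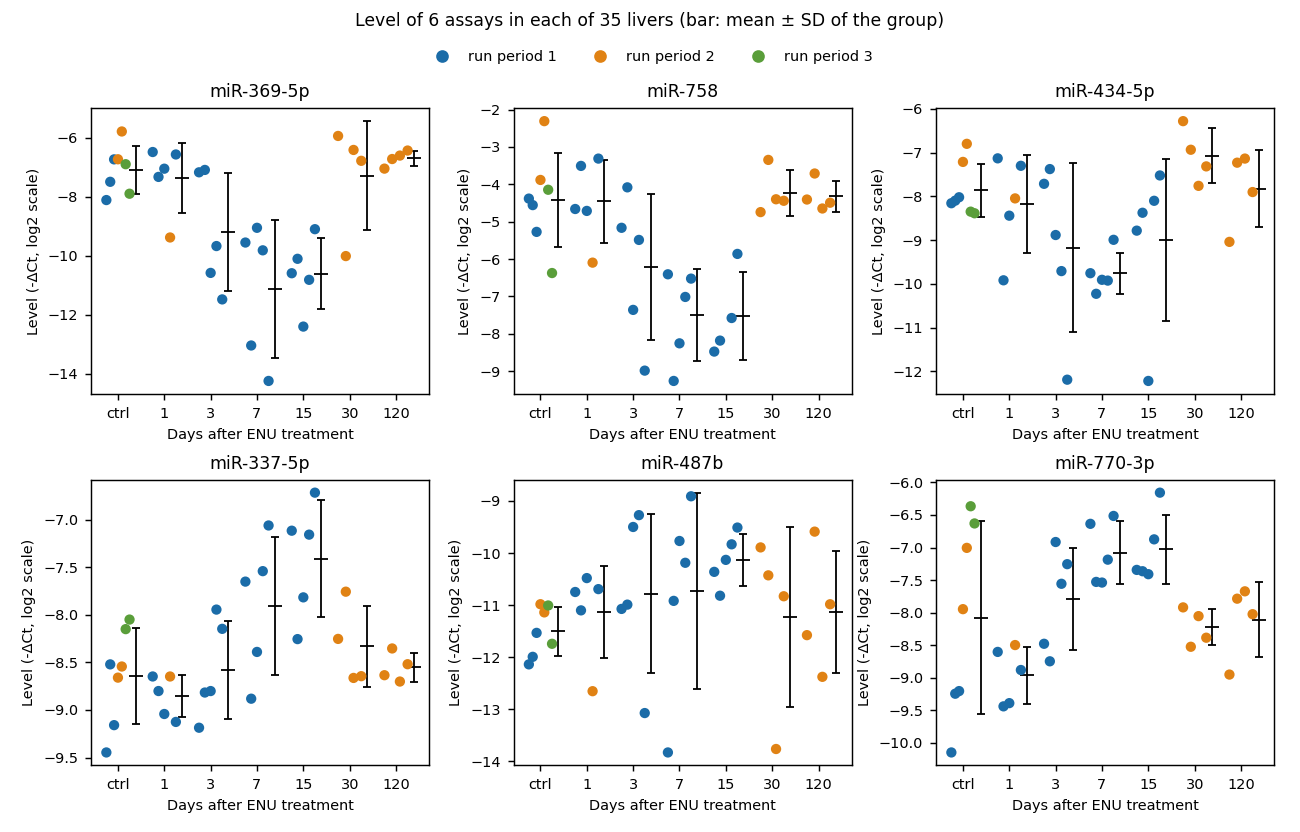
Level (-ΔCt, log2 scale) of 6 assays in each of the 35 livers, by group, with the mean and SD of the group beside the points. Colours give the run period of the array. miR-369-5p and miR-758 are low at PTDs 7 and 15, and at PTD 3 3 of 5 mice lie below all controls for miR-369-5p and 2 of 5 for miR-758, while miR-770-3p differs more between control arrays of different run periods than between ENU and control.

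The arms of the miR-337 hairpin were called in opposite directions, the 3p arm lower at PTD 7 and the 5p arm higher at PTD 15. miR-337-3p was 2.49-fold lower at PTD 7 (log2 -1.32 ± 0.39, limma adjusted p = 0.0544), while miR-337-5p lay 0.74 above control (SE 0.37) there. Within the same run period the miR-337-3p difference was -0.72 and was not called. The difference between both arms, 5p minus 3p, needs no reference RNA, since both assays are on the same array. It was 1.57, 1.70, 1.69, 1.05, 0.73, 1.78 and 1.65 in the 7 controls. It was 3.82, 3.65, 2.49, 3.34 and 4.28 at PTD 7 and 4.43, 2.96, 2.61, 4.07 and 3.71 at PTD 15. Every mouse at PTDs 7 and 15 lay above every control. The shift against the control mean of 1.45 ± 0.40 (SD) was 2.06 at PTD 7 and 2.10 at PTD 15. Each had an exact two-sided permutation p = 0.00126 (adjusted p = 0.0189 over the 30 tests of 5 hairpins at 6 PTDs), the smallest p that 5 against 7 mice allow.

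At PTD 3 the miR-337 arm difference split in the same way as miR-369-5p. It was 0.92 and 1.34 in replicates 1 and 2, and 2.90, 3.50 and 3.65 in replicates 3, 4 and 5. At PTDs 30 and 120 it lay between 0.26 and 1.58. Against the 3 controls of the first run period, the shifts at PTDs 7 and 15 were 1.86 and 1.90, and the exact p values of 0.0179 and 0.0357 did not pass the adjustment (adjusted p = 0.4), since 3 against 5 mice cannot go below 0.0179.

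The arms of the other 4 hairpins gave no called difference. For miR-434 the 5p arm fell more than the 3p arm at PTD 7, by 1.27 (exact two-sided permutation p = 0.00631, adjusted p = 0.0631). For miR-409 the difference at PTD 15 was -1.13 from control (exact p = 0.0328, adjusted p = 0.246). Both arms of miR-770 moved together, with arm differences between -0.59 and 1.56 over all arrays and a correlation of 0.79 between the arms within groups, a description over 35 arrays that share their reference RNAs. The same correlation was 0.23 for miR-337, 0.41 for miR-380, 0.40 for miR-409 and 0.19 for miR-434. Over all 861 pairs of members its median was 0.26, against 0.32 over all pairs of assays and 0.32 over the 45 assay pairs of neighbouring hairpins.

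**Figure D4:**
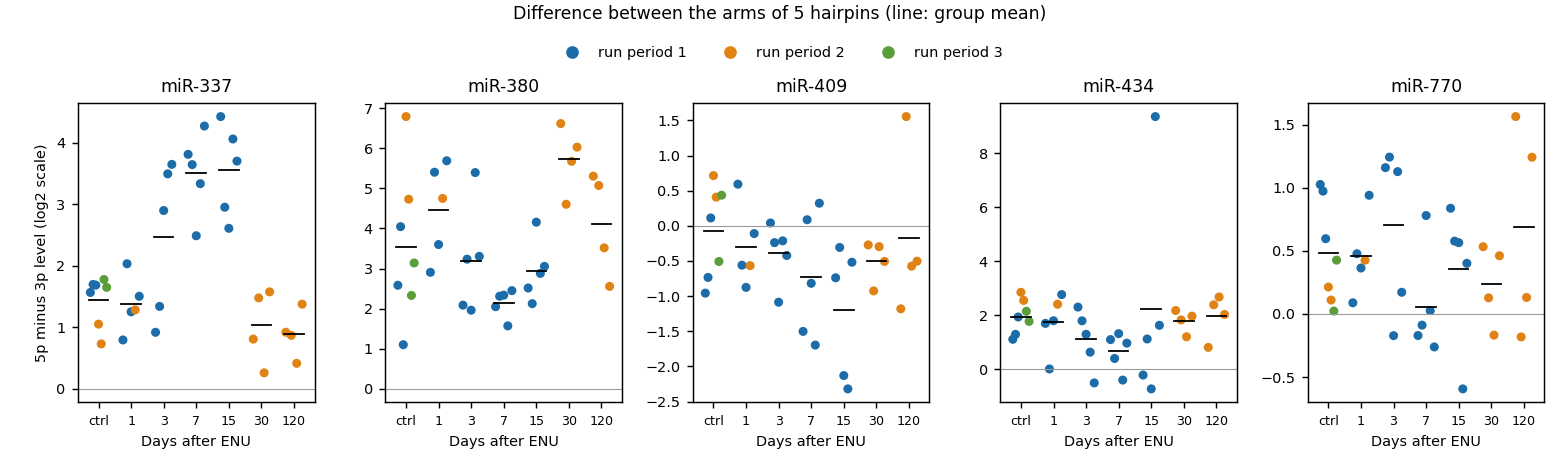
Difference between the 5p and 3p assays of 5 hairpins (log2 scale, vertical axes) in each of 35 livers by group, with a line at the group mean and colours for the run period. For miR-337 all mice at PTDs 7 and 15 lie above all 7 controls. For miR-434 the point at 9.36 is PTD 15 replicate 4, whose 3p assay was at -17.46.

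The arrays had been run in 3 periods, and controls and ENU mice were spread over them unevenly. All mice of PTDs 3, 7 and 15, 4 of 5 mice of PTD 1 and the 3 controls labelled day 1 were in the first period. The mice of PTDs 30 and 120, the other PTD 1 mouse and 2 controls were in the second, and the other 2 controls in the third. Against the 3 controls of the same period alone, 8 members were called higher and 5 lower at PTD 7, with 26.9% and 6.12% of all assays called. At PTD 15, 11 were called higher and 4 lower, with 35.6% and 4.79% of all assays. miR-369-5p, miR-758 and miR-434-5p remained called at PTD 7, with log2 differences of -3.70, -2.75 and -1.67, whereas miR-411, miR-496 and miR-337-3p (-1.23, -1.77 and -0.72) were not called. All 4 members called at PTD 15 remained called. With run period as a block in a fit of all arrays, miR-434-5p, miR-411 and miR-337-3p lost their call at PTD 7 (log2 -1.82 for miR-434-5p) and miR-487b lost it at PTD 15 (1.32).

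Of the members gained at PTD 7, 8 were called higher and 2, miR-377 and miR-431, called lower. For all 8 the 3 controls of the first period had the lowest mean of the 3 periods. For miR-770-3p these controls lay at -10.15, -9.25 and -9.20, against -7.95 and -7.01 in the controls of the second period and -6.37 and -6.63 in those of the third. The PTD 7 mice lay at -6.64, -7.53, -7.54, -7.19 and -6.52, above the former and level with the latter. The log2 difference at PTD 7 was 1.00 ± 0.63 against all controls (limma adjusted p = 0.329) and 2.45 within the period (adjusted p = 0.00168). miR-770-5p, miR-673-5p, miR-679, miR-134 and miR-380-3p were likewise called higher at PTD 7 within the period and not against all 7 controls, with log2 differences of 1.64, 1.71, 3.19, 2.47 and 2.35, against 0.57, 0.54, 1.68, 1.52 and 1.45 over all controls. miR-134 was also called against all 7 controls when scaled to the array median or in a single fit of all samples. miR-673-5p and miR-377 were named after their values were seen.

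Each array also carried a pair of wells with a spiked reverse transcription control. Their Ct difference, well 1 minus well 2, ran from -0.35 to 0.30, and no array fell between -0.093 and -0.026. Above this gap lay 16 arrays: all 10 of PTDs 7 and 15, replicates 3, 4 and 5 of PTD 3, 1 of PTD 1 and both controls of the third period. The division at the gap was chosen after the values were seen. miR-299, named after its values were seen, and miR-431 followed it without overlap. Every other member overlapped between the arrays above and below the gap. How many of all assays separate in this way was not counted, so nothing particular to the cluster is read from these members. miR-299 lay between -15.71 and -10.43 in the 15 arrays above the gap with a value and between -9.96 and -7.15 in the 19 below it. miR-431 lay between -10.14 and -8.10 above and between -7.93 and -5.90 below. Within the control group alone, miR-299 was at -11.40 and -12.12 in the third period and between -9.96 and -7.65 in the other controls.

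Over the 42 members, the difference between the third-period controls and the other controls correlated with the difference between PTDs 7 and 15 and PTD 1 (r = 0.77, rho = 0.83), although no array is shared. For the PTD 3 replicates above the gap minus those below it, r was 0.79. The low PTD 3 and PTD 1 mice of miR-369-5p were above the gap too, whereas the low PTD 30 mouse, at -10.01, was below it. The part of reverse transcription in these levels was not tested. Both correlations are descriptions across assays that share their arrays and reference RNAs, and over all 376 assays r was 0.67 and 0.73. The third-period controls were at -6.89 and -7.90 for miR-369-5p and at 1.78 and 1.65 for the miR-337 arm difference, within the range of the other controls or, for the arm difference of 1.78, just above it. For miR-434-5p they were the 2 lowest of the 7 controls, at -8.35 and -8.39, and for miR-758 they were at -4.14 and -6.37, the latter the lowest control. Their mean minus that of the other controls was -0.43 for miR-369-5p, -0.71 for miR-434-5p and -1.18 for miR-758, the direction of the decreases at PTD 7. The PTD 3 replicates above the gap minus those below it differed more, by -3.45 for miR-369-5p, -2.72 for miR-434-5p and -2.655 for miR-758. With the reverse transcription control difference as a covariate, the log2 difference was -4.08 for miR-369-5p, -2.65 for miR-758 and -1.66 for miR-434-5p at PTD 7, all still called, and 0.28 for miR-770-3p. miR-411 and miR-496 lost their call at PTD 7 with this covariate. In that fit the third-period controls, at 0.28 and 0.30, were the only controls above the gap, and all PTD 7 arrays were above it. The covariate therefore rests largely on these controls and cannot be told apart from their run period.

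**Figure D5:**
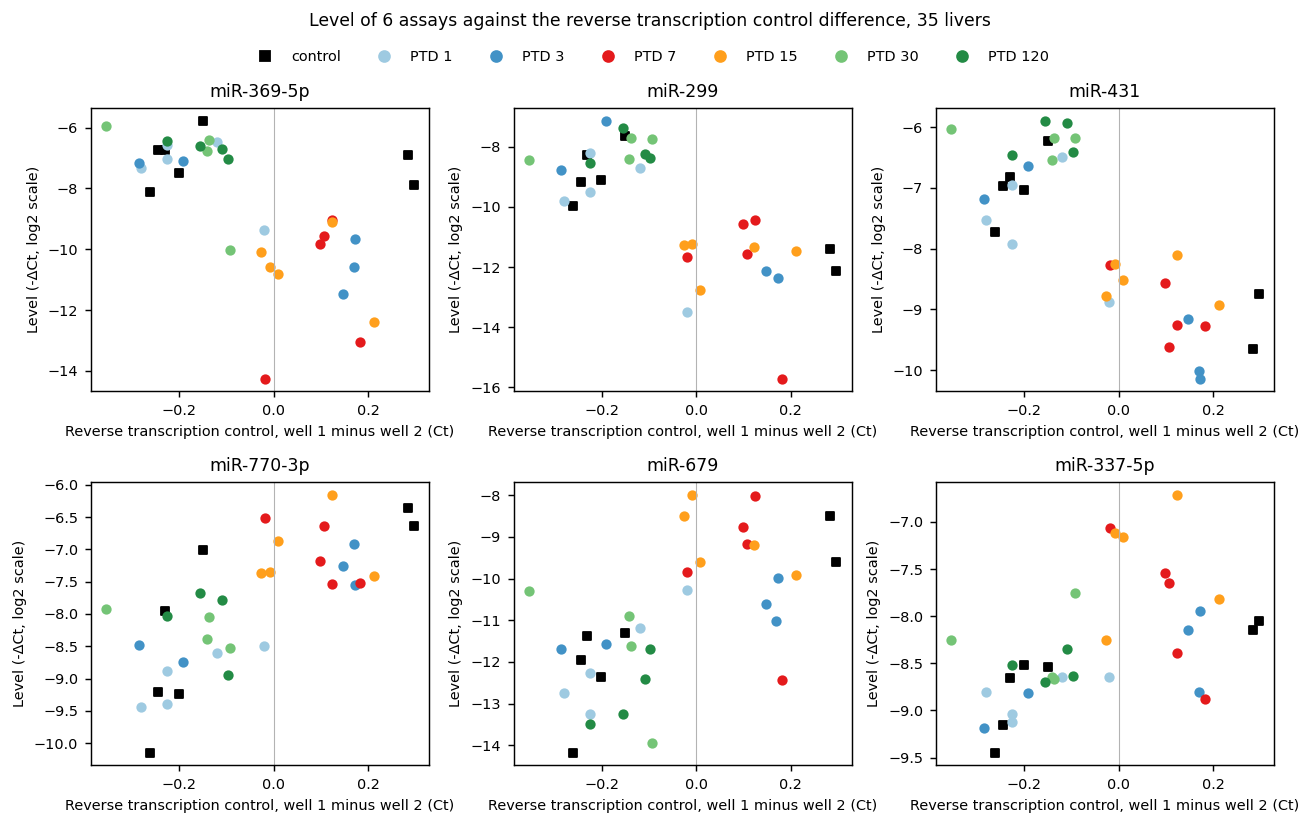
Level (-ΔCt, log2 scale, vertical axes) of 6 assays against the Ct difference of the reverse transcription control wells (horizontal axes) in 35 livers, coloured by group with controls as squares. miR-299 and miR-431 form 2 separate clouds on either side of the gap, with 2 controls in the lower cloud. For miR-369-5p the 2 controls at the far right stay with the other controls.

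PTDs 7 and 15 together were also compared with PTD 1, which uses no control array. Of the members 10 were called, 7 higher and 3 lower, with 32.7% of all assays called (26.9% higher and 5.85% lower). Scaled to the array median, 4 were called higher and 6 lower, with 17.6% and 8.78% of all assays. Markers of several cell types, hepatocytes included, were also called higher in this contrast, as given with the tissue check. miR-679 was 6.05-fold higher (log2 2.60 ± 0.62, limma adjusted p = 0.00578), miR-770-3p 3.75-fold (1.91 ± 0.29, adjusted p = 0.000176) and miR-770-5p 3.15-fold (1.65 ± 0.31, adjusted p = 0.000983). miR-882, miR-134, miR-380-3p and miR-337-5p were higher by log2 2.18, 1.86, 1.67 and 1.20. Lower were miR-369-5p (-3.51 ± 0.78, adjusted p = 0.0038), miR-758 (-3.05 ± 0.57, adjusted p = 0.00109) and miR-431 (-1.20 ± 0.36, adjusted p = 0.0135). All 10 mice of PTDs 7 and 15 were above all 5 of PTD 1 for both miR-770 arms. PTD 1 had 1 array above the gap of the reverse transcription control and PTDs 7 and 15 had all of theirs above it, and with that control as a covariate only miR-770-3p was called, while miR-369-5p (-2.79) and miR-758 (-1.87) lost their call. Over all 376 assays the share called fell likewise, to 6.12%.

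The name rule left out 3 assays of the same region. miR-453, whose hairpin lies between those of miR-485 and miR-154 in this annotation, was called lower at PTDs 3, 7 and 15 (log2 -1.89 ± 0.53, -1.64 ± 0.37 and -1.85 ± 0.37, limma adjusted p = 0.286, 0.0126 and 0.00797) and higher at PTD 120 (1.41 ± 0.37, adjusted p = 0.446). miR-654-5p and miR-654-3p were called at no PTD against the controls. Of 5 assays of other chromosome 12 miRNAs, miR-342-3p, miR-342-5p, miR-345-3p, miR-345-5p and miR-203, none was called at any PTD against the controls. For PTDs 7 and 15 against PTD 1, where 32.7% of all assays were called, miR-654-5p and miR-654-3p were called higher and miR-453 lower. Their log2 differences were 1.90, 2.71 and -1.60 (limma adjusted p = 0.0198, 0.00811 and 0.0093). miR-345-3p was called higher there too (1.94, adjusted p = 0.00631), and the other neighbours were not called.

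The tissue was checked through its markers. The 4 hepatocyte miRNAs miR-122, miR-194, miR-192 and miR-148a ranked between 1 and 7 in control liver, and none of them was called at any PTD against the controls. The summed level (log2 of the sum) of 3 stromal markers (miR-199a-5p, miR-199b and miR-214) ranged from -1.37 to 0.97 in controls, -0.65 to 0.95 at PTD 7 and -0.36 to 0.77 at PTD 15, with no marker called. The 3 neural markers (miR-124, miR-9 and miR-137) likewise gave no call, with sums from -5.85 to -2.78 in controls and -4.46 to -3.16 at PTD 7. Of the 3 erythroid markers, 2 were called higher at PTD 15, where their sum ranged from 2.95 to 4.18 against 2.09 to 3.43 in controls. Of the 5 blood and immune markers, 1 was called lower at PTD 1 and 1 higher at PTD 120. No endothelial or muscle marker was called against the controls. For PTDs 7 and 15 against PTD 1, however, 11 of the 23 markers of all lists were called higher and 0 lower. They were 3 of 4 hepatocyte, 2 of 5 blood and immune, both endothelial, 1 of 3 stromal, 1 of 3 neural and 2 of 3 muscle markers, among them miR-192 at log2 1.17, miR-150 at 1.92, miR-126-3p at 1.31 and miR-133b at 2.27. The part of other cell types in the member changes was not tested. In a whole liver, fewer cells of a type and less RNA per cell cannot be told apart.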

How the data were processed

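Enriched liver small RNA was measured with 384-well SYBR Green PCR arrays holding 376 miRNA assays, 4 reference RNAs (snoRNA251, snoRNA202, snoRNA142 and U6), reverse transcription controls and PCR controls. The deposited values are Ct per well, neither counts nor normalized, which the authors computed with SDS 2.3 at a fixed threshold of 0.15 over 40 cycles. Wells carried no names in the files, so names came from the study's own supplementary table. The values of 34 arrays matched that table within 0.001, and PTD 3 replicate 3 did not. Members and lists were chosen with earlier results of these data known.

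Expression was -ΔCt against the mean of the 4 reference RNAs. Undetermined wells (3 of 1470 member wells) were missing values, and 8 member wells carried an instrument flag and were kept. Groups were compared with limma 3.58.1 in R 4.3.3, with Benjamini-Hochberg adjustment over 376 assays. Arm differences were compared by exact permutation tests in Python 3.11.15. The tests were checked on simulated data. Named members were the 5 highest and lowest in controls, up to 5 largest called changes per PTD, both arms of 5 hairpins and members of the study's list. The precision of each value is limited by the number of arrays. Each array was 1 mouse. The number of alternatives tried was 15, besides leaving out single arrays.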

Additional observations from a re-analysis of the deposited data

Results flagged for a closer look

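In 3 groups the most distant sample of a called member stood apart from the rest by Dixon's criterion. miR-434-5p was at -12.22 in PTD 15 replicate 3, while the other 4 mice lay between -8.78 and -7.52. PTD 1 replicate 4 stood apart for miR-487b, at -12.65 against -11.10 to -10.48, and for miR-496, at -13.19 against -9.91 to -9.03. This mouse was the only one of PTD 1 in the second run period and above the gap of the reverse transcription control. Such distances were sought in 105 groups of values, and chance marks about 1 in 20. The effect of these properties of the array was not tested.

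Between time points 10 members differed, PTDs 7 and 15 against PTD 1, by limma over all assays, of which 32.7% were called. The log2 differences were 2.60 for miR-679, 2.18 for miR-882, 1.91 for miR-770-3p, 1.86 for miR-134, 1.67 for miR-380-3p, 1.65 for miR-770-5p, 1.20 for miR-337-5p, -1.20 for miR-431, -3.05 for miR-758 and -3.51 for miR-369-5p. The adjusted p ranged from 0.000176 to 0.0241. The reverse transcription control moved with this contrast, and with it as a covariate 1 of the 10, miR-770-3p, was called.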

How the results depend on the processing

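The decreases of miR-369-5p and miR-758 at PTDs 7 and 15 were called under every alternative that could test them, except that miR-369-5p was not among the assays with a mean Ct of at most 30. Leaving out single mice moved the log2 difference of miR-369-5p between -4.58 and -3.28 at PTD 7. The 6 calls at PTD 7 became 13 both against the day 1 controls alone and within the run period, 14 without the controls of run period 3 and 14 with run period as a block, and 2 among assays with a mean Ct of at most 30. The 4 calls at PTD 15 became 15 both against the day 1 controls alone and within the run period, 12 without the controls of run period 3, 13 with run period as a block, 7 with the array median, 1 among assays with a mean Ct of at most 30 and 2 with the replicate block. The 0 calls at PTD 1 became 1 against the day 1 controls, 3 against the day 30 controls and 1 within the run period. At PTD 3 they became 2, 2 and 2, and 5 with run period as a block. At PTD 30 they became 8 against the day 1 controls, 2 against the day 30 controls and 1 without U6. At PTD 120 they became 6 and 2. The 10 calls of PTDs 7 and 15 against PTD 1 became 4 among assays with a mean Ct of at most 30, where only 9 members were tested and 37.6% of all assays were called, and 1 with the reverse transcription control as a covariate, where miR-882 turned to -0.13. The share of all assays called moved too. At PTD 7 it was 33.0% against the day 1 controls, 19.1% without the controls of run period 3, 30.3% with run period as a block and 5.37% among assays with a mean Ct of at most 30. At PTD 15 it was 40.4%, 22.1%, 36.2% and 11.7% in the same order, 14.6% with the array median and 7.18% with the replicate block. At PTDs 1 and 3 it was 1.06% and 7.98% against the day 1 controls and within the run period, and 13.0% and 6.12% against the day 30 controls. It was 14.9% at PTD 3 with run period as a block, 37.5% at PTD 30 and 27.9% at PTD 120 against the day 1 controls, 1.33% and 1.6% there against the day 30 controls, and 1.86% at PTD 30 without U6. The deviations of same-numbered samples correlated between -0.36 and 0.48 and the labels tie no number to a litter or day. PTD 3 and the day 30 controls alone had every pair above 0.1 (0.23 to 0.48), while PTD 3 and the day 1 controls had -0.13 to 0.02. With the replicate block 0 members were called at PTD 3, as without it, 5 at PTD 7 and 9 for PTDs 7 and 15 against PTD 1, with 1.33%, 7.71% and 34.0% of all assays.

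Against the day 1 controls alone, the member medians were 0.16, 0.18, 0.15, 0.72, 0.87 and 0.78 from PTD 1 to PTD 120, turning direction at PTDs 1, 3 and 7. Against the day 30 controls they were -0.55, -0.68, -0.70, -0.33, 0.042 and -0.15 from PTD 1 to PTD 120, turning direction at PTDs 15 and 120. Within the run period they were 0.31, 0.18, 0.15, 0.72, 0.0042 and -0.10 from PTD 1 to PTD 120, turning direction at PTDs 1, 3, 7 and 120. The array median gave 0.13, 0.047 and -0.14 at PTDs 1, 30 and 120, and assays with a mean Ct of at most 30 gave -0.93 and 0.50 at PTDs 7 and 120. The 2 called arm differences became 0 against the controls of either label, within the run period and without the controls of run period 3, where fewer controls raise the smallest possible p. The median rank was 267 in the day 1 controls. The causes were not tested.

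Without single mice, 5 to 9 members were called at PTD 7, 3 to 8 at PTD 15, 0 to 2 at PTDs 3 and 30, 0 to 1 at PTD 120 and 8 to 13 for PTDs 7 and 15 against PTD 1. The share of all assays called was not counted in these fits, so nothing particular to the cluster is read from the member counts. The medians ranged from -0.47 to -0.12, -0.36 to -0.03, -0.50 to -0.21, -0.14 to 0.33, 0.27 to 0.62 and 0.07 to 0.44 at the 6 PTDs in turn. The counts of 8 at PTD 15 came without day 30 control replicate 3 or 4, the 2 at PTD 3 without its replicate 2 (1 without replicate 1 or 4), the 2 at PTD 30 without its replicate 3 or day 30 control replicate 2 (1 without day 30 control replicate 4 or day 1 control replicate 3), and the 1 at PTD 120 without day 30 control replicate 2. The single fit of all samples ended the calls of miR-496 at PTD 7 and miR-487b at PTD 15 at the same log2 differences (-1.82 and 1.37), with another estimate of the spread.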
